A study of Mus musculus with 8 samples.

Results

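Knockdown of Ddb1 was compared with a non-targeting siRNA in mouse embryonic stem cells. The comparison used 4 of the 8 arrays in the series, which were the 2 titled siDdb1 and the 2 titled siNonTarget, and it was read across 18193 genes. All 8 arrays came from 1 mouse line, NG4, for which the labels give no genotype beyond the siRNA, collected 48 h after reverse transfection of a small interfering RNA (siRNA). The siNonTarget cells received the non-targeting siRNA, the siDdb1 cells an siRNA against Ddb1, and the other 4 arrays, 2 of siSox2 and 2 of siPsmd14, entered the fit to estimate the spread. The labels do not say whether 2 arrays of a group are separate cultures, and p-values therefore measure a spread between samples that may be technical. By its title, the series knocked down ubiquitin-proteasome genes to ask about self-renewal.

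DDB1 is the adaptor of the cullin-RING ubiquitin ligases built on CUL4A or CUL4B. It joins the cullin to one of many substrate receptors, the DCAF proteins, and the complex then marks the receptor's target for degradation or signalling. Known targets include the replication licensing factor CDT1, the cell cycle inhibitor p21 and the DNA damage sensor XPC, and the complex with DDB2 recognises ultraviolet damage in chromatin. Such control acts on proteins, and the arrays measured only transcripts.

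Values are RMA signals on the log2 scale, so 1 unit is 2-fold. A fold change here is the siDdb1 mean minus the siNonTarget mean, its error is the standard error (SE) of the limma fit, and an adjusted p is limma's p after Benjamini-Hochberg adjustment over 45037 probe sets, with a threshold of 0.05. A gene is represented by its brightest probe set. Median intensity on the 4 arrays was 27.6 to 28.8. Of 12 embryonic stem cell markers, 12 lay above the array median on each array, with summed intensities of 67655 and 72414 in siNonTarget and 63930 and 65554 in siDdb1. The control probe set for 18S ribosomal RNA read 11.04 and 11.39 in siNonTarget and 11.52 and 12.71 in siDdb1, highest on siDdb1 replicate 2. Its part in the results was not tested. The siDdb1 arrays were unequal: the SD across genes of the shift from the siNonTarget mean was 0.361 on replicate 1 and 0.252 on replicate 2.

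The Ddb1 transcript was lower in both siDdb1 arrays. It read 11.88 and 11.81 in siNonTarget, against 9.67 and 10.73 in siDdb1. These are 22.1% and 46.1% of the control mean, so replicate 1 had the deeper loss. The mean difference was -1.65 (SE 0.28, n = 2 against 2), the most negative fold change among all 18193 genes, and by shift Ddb1 ranked 2 on replicate 1 and 4 on replicate 2. The adjusted p was 0.147. With siDdb1 replicate 2 left out the difference was -2.18 (adjusted p = 0.00934), and with replicate 1 left out it was -1.12 (adjusted p = 0.321). Either leaves a single siDdb1 array, which is assumed to vary like the other groups. Set directly against the other knockdowns, Ddb1 was lower than in siSox2, with a difference of -1.92 (adjusted p = 0.00888), and lower than in siPsmd14, with a difference of -1.87 (adjusted p = 0.0321). The array has 1 Ddb1 probe set with this symbol alone.

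The other parts of the ligase stayed close to their control level. Of 31 measured cullins, RING proteins, DCAF receptors and regulators, 2 were higher at an unadjusted p under 0.05 and 0 were lower, with a median fold change of -0.03. Across all genes 1065, or 5.85%, were higher by that rule and 729, or 4.01%, were lower, and the median was -0.01. The 2 higher genes were Cul4b and Dcaf4. Cul4b, one of the 2 cullin scaffolds, read 11.96 and 12.02 in siNonTarget and 12.36 and 12.28 in siDdb1 (adjusted p = 0.566). Dcaf4, a substrate receptor, read 9.43 and 9.35 against 10.16 and 9.76 (adjusted p = 0.327). Cul4a read 6.87 and 7.11 against 7.17 and 7.37, and Rbx1, the RING subunit that recruits the ubiquitin-loaded enzyme, read 6.47 and 6.57 against 6.60 and 6.14.

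The transcripts of 13 measured substrates of the ligase had a median fold change of -0.05, although the medians on the separate arrays were 0.07 and 0.03. Of these, 2 were higher and 1 lower at an unadjusted p under 0.05 (5.85% and 4.01% of all genes). Cdkn1a, which encodes p21, read 8.41 and 8.45 in siNonTarget and 9.87 and 9.25 in siDdb1, with no overlap. Jun, a subunit of the AP-1 factor, read 6.95 and 6.72 against 8.03 and 7.59. Xpc lay on the other side, at 7.43 and 7.22 against 6.68 and 6.78. From siNonTarget, Cdkn1a differed by 1.13 in siDdb1, 1.24 in siSox2 and 1.32 in siPsmd14. In the same order Jun differed by 0.97, 2.22 and 1.95, and Xpc by -0.60, 0.03 and -0.47. The rises of Cdkn1a and Jun were thus not particular to siDdb1. Cdt1 was bright and level, at 12.82 and 12.86 in siNonTarget and 12.92 and 12.84 in siDdb1.

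At the adjusted threshold 8 genes, or 0.044% of those tested, were higher in siDdb1, and 0 were lower. The lowest adjusted p among lower genes was 0.0529, for Mobp, and limma gave an unadjusted p under 0.05 for 729 lower genes. In all 8 genes each siDdb1 array was above each siNonTarget array. Their values were close on both siDdb1 arrays, which passing a test with 2 arrays a group favours.

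Hes6, a basic helix-loop-helix factor that promotes neuronal differentiation, read 8.16 and 7.89 in siNonTarget and 9.60 and 9.33 in siDdb1. The rise was 1.44 (SE 0.15, adjusted p = 0.0448). A second Hes6 probe set also passed, with a rise of 1.30. Selenop, the plasma selenium transport protein, had the smallest p: 8.41 and 8.26 rose to 9.91 and 9.86, a change of 1.55 (SE 0.14, adjusted p = 0.0448). Serinc5, a membrane protein known for restricting retrovirus infectivity, went from 6.87 and 6.88 to 8.18 and 8.08, a rise of 1.25 with the smallest SE of the 8, 0.14.

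The remaining 5 genes were dimmer in the control. Gfra1, the co-receptor for the neurotrophic factor GDNF, read 5.65 and 5.98 in siNonTarget and 7.38 and 7.57 in siDdb1, a rise of 1.66 (SE 0.18, adjusted p = 0.0448). Irs4, an adaptor of insulin and IGF receptors, read 4.50 and 4.15 against 5.93 and 5.72. Ndnf, a secreted neurotrophic factor, read 3.81 and 4.21 against 5.41 and 5.31. The last 2 were Hoxd13, a posterior Hox gene, with 4.28 and 4.33 against 5.58 and 5.46, and Csn3, the milk protein kappa-casein, with 3.96 and 3.65 against 5.69 and 5.59. Irs4, Ndnf, Hoxd13 and Csn3 started below the control array medians of 4.79 and 4.83, and no detection calls were available, so whether their control values exceeded background was not tested.

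For Gfra1, Irs4, Ndnf, Hoxd13 and Csn3 a dimmer probe set of the same gene did not pass, and that of Irs4 had a difference of -0.29. The symbols of 4 further probe sets past the threshold, named after their values were seen, were Hes6 again, Nipal4 (1.32), Pcdh8 (1.52) and Pde2a (1.89). None of the 8 genes passed when the 4 arrays were fitted alone or when any array other than siDdb1 replicate 2 was left out, and 8 of 8 passed without siDdb1 replicate 2, where 88 genes were higher and 10 lower with the spread taken from the other groups.

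**Figure D1:**
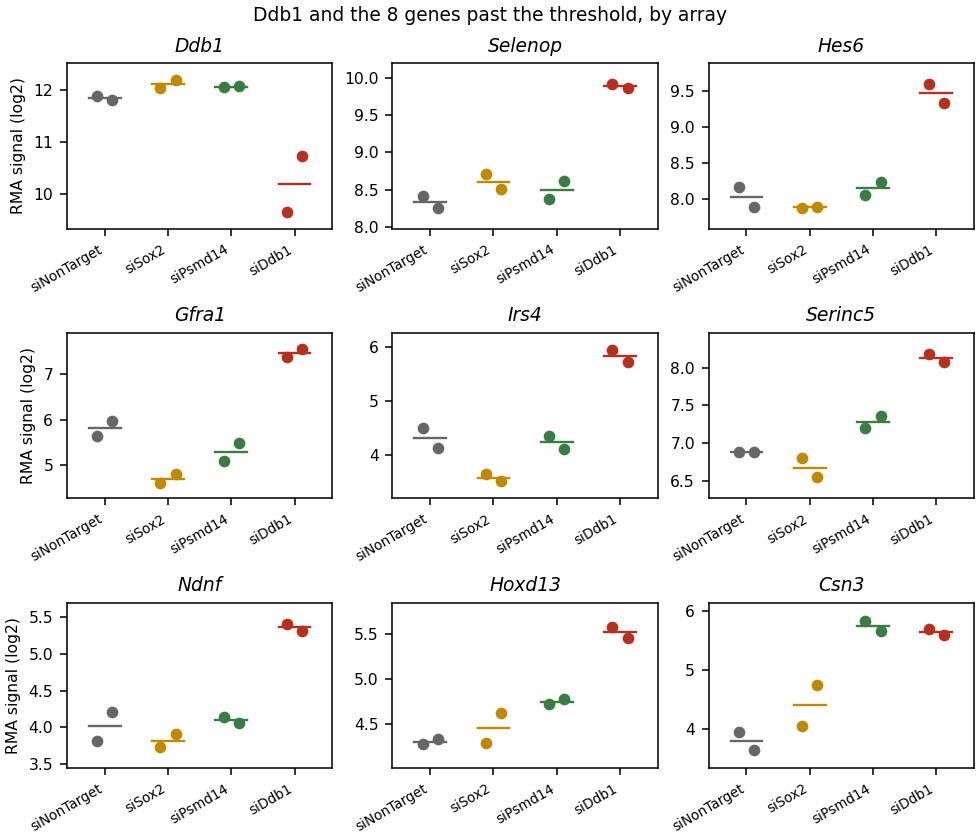
RMA signal (log2) of Ddb1 and the 8 genes past the threshold on the 8 arrays, with 2 points per group and a line at each group mean. Ddb1 is spread in siDdb1 (9.67 and 10.73), while both siDdb1 points of the other 8 genes lie above both siNonTarget points, and only Csn3 has siPsmd14 at the same level.

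Below the threshold the ranking leaned to higher genes. At an adjusted p of 0.1 there were 24 higher and 2 lower genes, and at 0.2 there were 69 and 12, all with arrays that did not overlap. A change of 2-fold or more was reached by 200 genes upward and 22 downward. Yet both siDdb1 arrays lay above both siNonTarget arrays for 3610 genes (19.8%) and below them for 4061 (22.3%). The lean was thus among the larger and top-ranked shifts and not in the number of genes without overlap.

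The genes ranked next by p among the higher ones came close to the threshold. Cass4, an adaptor of focal adhesions, read 5.35 and 5.39 in siNonTarget and 7.46 and 6.72 in siDdb1 (1.72, adjusted p = 0.062). Metrnl, a secreted protein, read 4.77 and 4.82 against 6.14 and 6.08. Irgm1, an interferon-inducible GTPase, read 5.75 and 5.91 against 8.40 and 7.55. Elf1, an ETS transcription factor, read 7.75 and 7.53 against 8.80 and 8.59. Tbx4, a T-box factor of the hindlimb, read 5.17 and 4.86 against 7.75 and 6.69, and Slc40a1, the iron exporter ferroportin, read 7.18 and 6.61 against 8.69 and 8.35. Metrnl and Elf1 were alike on both siDdb1 arrays, whereas Cass4, Irgm1 and Tbx4 were each higher on replicate 1.

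Among lower genes, 5 of those with the smallest p lay 1.76 to 2.45 times under control. Mobp, a myelin protein, read 5.82 and 5.62 in siNonTarget and 4.23 and 4.62 in siDdb1. Gabbr1, a subunit of the GABA-B receptor, read 8.43 and 8.54 against 7.47 and 7.24 (-1.12, adjusted p = 0.0814). Itpka, an inositol trisphosphate kinase, read 5.54 and 5.46 against 4.25 and 4.56. Porcn, the acyltransferase that Wnt ligands need for secretion, read 7.68 and 7.96 against 7.04 and 6.85, and Eif4g3, a translation initiation scaffold, read 9.29 and 9.06 against 8.28 and 8.44. The largest negative fold changes after Ddb1 among bright genes were those of Inhbb, a subunit of activin B, at 8.54 and 8.84 against 6.58 and 7.52 (-1.64, adjusted p = 0.269), and Hesx1, a homeobox repressor of the anterior forebrain, at 7.54 and 6.68 against 4.89 and 6.20. For Inhbb and Hesx1, as for Ddb1, siDdb1 replicate 1 was the lower array. From siNonTarget, Mobp differed by -1.44 in siSox2 and -1.05 in siPsmd14, Itpka by -1.20 and -0.88, and Porcn by -1.20 and -0.74. In the same order Gabbr1 differed by -0.52 and -1.22, Inhbb by -1.81 and -1.36, and Hesx1 by -0.37 and -0.97. Eif4g3 differed by 0.04 and -0.19. Of these genes none passed the adjusted threshold between siDdb1 and siPsmd14, and only Eif4g3 passed it against siSox2 (limma adjusted p = 0.0119).

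Agreement between the siDdb1 arrays was read from pairs that share no array. The shift of siDdb1 replicate 1 from siNonTarget replicate 1 correlated across 18193 genes with that of replicate 2 from replicate 2 at Pearson r = 0.333 (Spearman rho 0.176), and with the siNonTarget arrays exchanged at 0.504 (rho 0.332). Genes are not independent replicates, so these are descriptions. Among the 11224 genes with a mean log2 value of at least 5 the values were 0.393 and 0.589. The siDdb1 shift was the wider one on replicate 1, with an SD of 0.409 in the first pair and 0.267 in the second.

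The genes with the highest shifts in one pair were nearly all positive in the other. Of the 100 highest shifts in the first pair, 98 were positive in the second, with a median of 0.70, where 49.7% of all genes were positive. Ranked the other way, 91 of 100 were positive with a median of 1.15, where 47.2% of all genes were positive. For the lowest shifts, 74 of the 100 lowest in the first pair were negative in the second, with a median of -0.15. The other way 62 of 100 were negative, with a median of -0.20. The shares of all genes that were negative were 50.2% and 52.6%, so the count of 62 was nearer to its share. With the siNonTarget arrays exchanged the counts were 100 and 95 for the highest shifts and 91 and 81 for the lowest. There 46.6% and 48.7% of all genes were positive and 53.3% and 51.2% negative. Of the 198 genes at least 2-fold higher without overlap, 189 had the larger shift on replicate 1, with median shifts of 1.60 and 0.94. Of the 20 lower by as much, 19 had the larger shift there, with medians of -1.49 and -0.87.

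**Figure D2:**
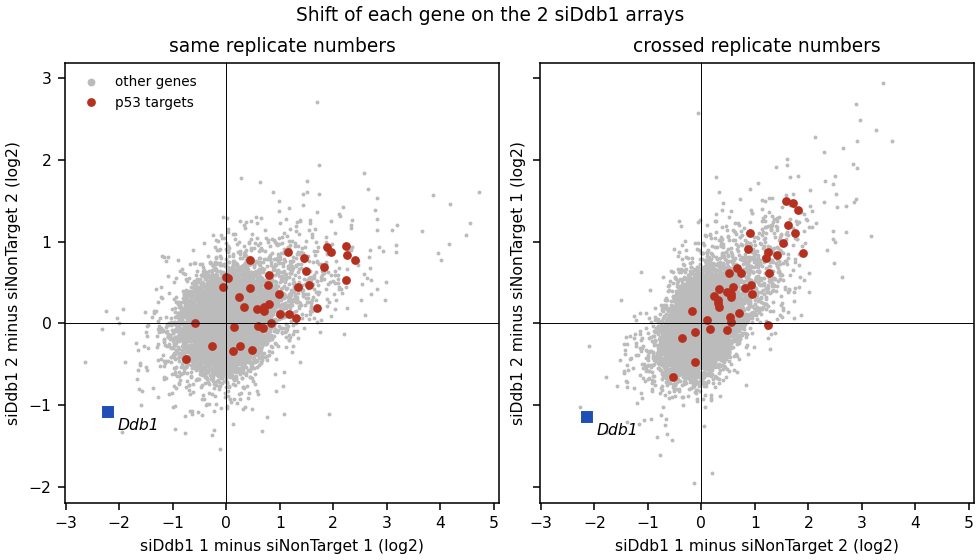
Each point is a gene, with its log2 shift on siDdb1 replicate 1 on the horizontal axis and on siDdb1 replicate 2 on the vertical axis, each from a different siNonTarget array (left, same replicate numbers; right, exchanged). Most of the 40 p53 targets (red) lie in the upper right, Ddb1 (blue square) lies at the lower left, and the cloud is wider along the horizontal axis.

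Targets of p53 lay above control. The factor p53 is held low by the ubiquitin ligase Mdm2, itself a p53 target, and on stress it turns on genes of cell cycle arrest, cell death and repair. Of 40 measured targets, 25 were higher at an unadjusted p under 0.05 and 1 was lower, where 5.85% of all genes were higher and 4.01% lower. In 29 targets both siDdb1 arrays lay above both controls and in 2 below, where the shares of all genes were 19.8% and 22.3%. The median fold change was 0.54, with 0.77 on replicate 1 and 0.37 on replicate 2, against -0.01 over all genes. None passed the adjusted threshold. The count of 25 was 15 without siDdb1 replicate 1 and between 18 and 27 without any one of the other 3 arrays.

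Promoters of 2 of these genes, Cdkn1a and Mdm2, are shown. Cdkn1a holds 2 half-sites of the p53 binding motif and Mdm2 holds only 1, and both genes lay above control on both arrays. Of 40 targets 32 matched a promoter in the RefSeq table (build GRCm38.p6), 250 bases before to 50 after the start. The motif searched was the p53 half-site, which reads the same on both strands, and the full element, which is 2 half-sites 0 to 13 bases apart. A gene counted if any of its promoters held the motif. The 32 targets had 45 promoters, and the 14452 matched genes overall had 18109. A half-site was found in 9 of the 32 (28.1%) and in 1242 of 14452 matched genes overall (8.59%). The full element was found in 1 of the 32 (3.12%) and in 8 of all genes (0.0554%), and that 1 was Cdkn1a. A match is a description of the letters and not evidence of binding. Half-sites are in capitals.
Cdkn1a, chr17:29090729-29091028, plus strand: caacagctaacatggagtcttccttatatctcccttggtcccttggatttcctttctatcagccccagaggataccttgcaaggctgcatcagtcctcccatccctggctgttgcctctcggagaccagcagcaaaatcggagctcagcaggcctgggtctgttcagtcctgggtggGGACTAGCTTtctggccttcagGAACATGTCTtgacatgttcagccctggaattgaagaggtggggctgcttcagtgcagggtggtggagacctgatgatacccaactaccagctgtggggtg
Mdm2, chr10:117710709-117711008, minus strand: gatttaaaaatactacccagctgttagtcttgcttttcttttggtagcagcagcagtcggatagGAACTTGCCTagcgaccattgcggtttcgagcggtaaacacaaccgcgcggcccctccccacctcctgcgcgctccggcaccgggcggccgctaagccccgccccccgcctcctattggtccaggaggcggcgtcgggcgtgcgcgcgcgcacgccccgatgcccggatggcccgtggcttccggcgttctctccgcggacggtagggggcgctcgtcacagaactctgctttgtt

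Arrest and feedback targets lay above control. Cdkn1a, at 8.41 and 8.45 in siNonTarget and 9.87 and 9.25 in siDdb1, had a difference of 1.13 (SE 0.24, adjusted p = 0.244). Mdm2 read 10.12 and 10.05 against 11.26 and 10.92, a difference of 1.01 (SE 0.15), and had the smallest adjusted p of the list, 0.0936. Its second probe set read 8.88 and 8.89 against 10.44 and 9.97. Ccng1, which encodes cyclin G1, read 10.80 and 11.26 against 12.14 and 11.70, and Btg2, an antiproliferative gene, read 8.80 and 9.47 against 11.05 and 10.30, a difference of 1.54. All 4 genes were separated from control and higher on siDdb1 replicate 1 than on replicate 2.

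Ddit4l and Ddit4 had the largest differences of the list. Ddit4, an inhibitor of mTORC1 signalling, read 9.47 and 9.92 in siNonTarget and 11.72 and 10.86 in siDdb1 (1.59, SE 0.28, adjusted p = 0.15). Ddit4l, its paralogue, read 7.20 and 7.89 against 9.61 and 8.67. Cd80, an immune costimulatory ligand, read 4.83 and 5.09 against 6.71 and 6.02. Again replicate 1 was higher in each.

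Of the cell death targets, Perp, a membrane protein of apoptosis, read 8.77 and 8.99 against 10.74 and 9.87, and Apaf1, the scaffold of the apoptosome, read 8.27 and 8.50 against 9.76 and 9.15. Pmaip1, which encodes Noxa, read 7.50 and 7.94 against 9.19 and 8.12, so its margin on replicate 2 was small. Bbc3, which encodes Puma, read 7.79 and 8.02 against 8.49 and 8.18. These last 2 were the members of the 16 BCL2 family genes with an unadjusted p under 0.05, and the family's median was 0.01. Their share was 12.5%, against 5.85% of all genes higher. Of the 40 targets 5 had a negative fold change. The repair target Xpc, described above, had -0.60, Tigar, a regulator of glycolysis, -0.29, Sulf2, a heparan sulfatase, -0.27, Fas, the death receptor, -0.11, and Sesn2, a sestrin, -0.01. Of these, Xpc and Sulf2 had both siDdb1 arrays below both controls.

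**Figure D3:**
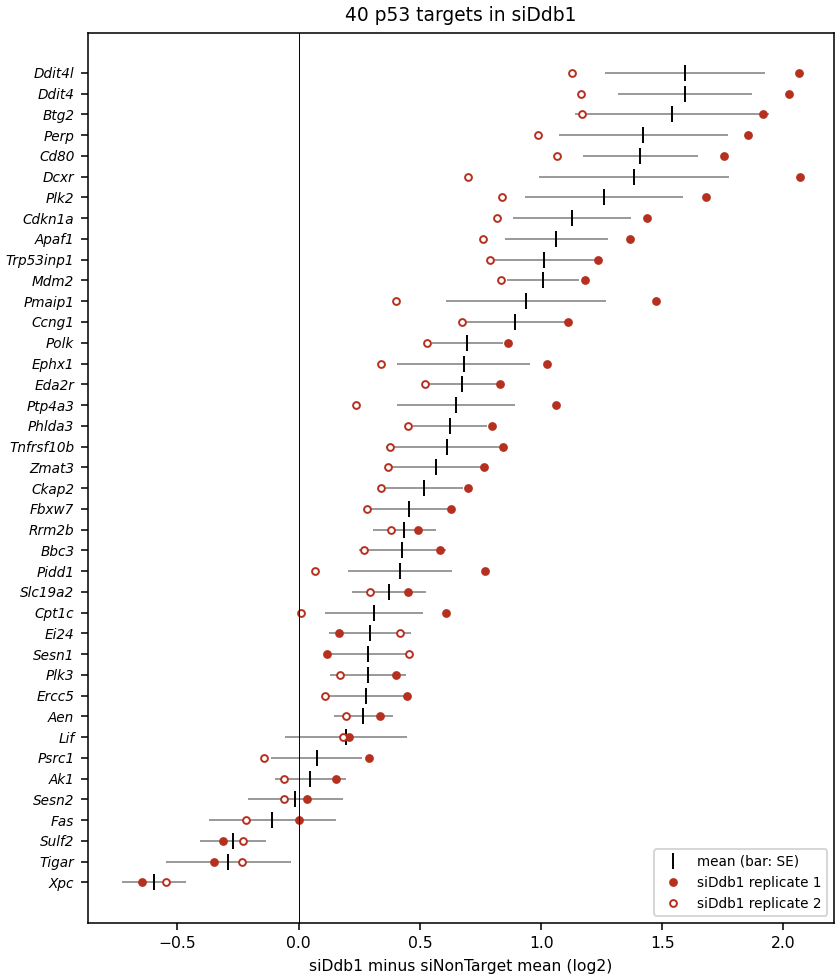
Fold change of 40 p53 targets in siDdb1 (log2), with the mean and its SE as a tick and bar and the 2 siDdb1 arrays as filled and open points, each as its shift from the siNonTarget mean. The means run from -0.60 for Xpc to 1.59 for Ddit4l, and in most genes the filled point of replicate 1 lies to the right of the open point.

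By an unadjusted p under 0.05, 5.85% of all genes were higher and 4.01% lower. Among 12 CDK inhibitors and G1 cyclins, 4 were higher and 0 lower by that rule. Besides Cdkn1a, these were Cdkn2b, which encodes p15, at 6.46 and 6.27 against 7.49 and 7.14 (0.95, adjusted p = 0.149), Cdkn1c, which encodes p57, with a difference of 1.16 (SE 0.32), and Ccne2, a cyclin E, at 7.01 and 6.69 against 7.12 and 7.51. Cdkn1b, which encodes p27, went the other way at 7.21 and 7.39 against 6.71 and 7.16 (limma adjusted p = 0.678). The genes that carry out division were near level. Of 38 DNA replication genes 0 were higher and 1 lower, with a median of -0.01. Of 24 mitosis genes 0 passed in either direction, and 9 lay below control without overlap (37.5%, against 22.3% of all genes), with a median of -0.09.

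Genes of the naive pluripotent state lay lower and genes of the primed state higher. Mouse embryonic stem cells in the naive state express factors such as Esrrb, Klf4 and Tfcp2l1, and as they move towards the primed state of the epiblast they lose these and gain Fgf5 and Pou3f1. Of 19 naive genes 9 were lower and 1 higher at an unadjusted p under 0.05. Their median was -0.46 (-0.46 on replicate 1 and -0.38 on replicate 2). At that p, 5.85% of all genes were higher and 4.01% lower. Of 20 primed genes 8 were higher and 0 lower, with a median of 0.36 (0.28 and 0.45). In contrast to the p53 targets, the primed list had its larger median on siDdb1 replicate 2. The naive list was also below control in the other knockdowns, with medians of -0.58 in siSox2 and -0.58 in siPsmd14. The primed list had medians of -0.28 in siSox2 and -0.28 in siPsmd14. No gene of the lists passed the adjusted threshold, and the count of 9 was 5 without siNonTarget replicate 2 and 6 without siDdb1 replicate 1.

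Of the naive genes, Esrrb read 10.66 and 10.66 in siNonTarget and 10.24 and 10.08 in siDdb1 (-0.49, SE 0.12, adjusted p = 0.287). Jam2, a junctional adhesion molecule, read 9.31 and 9.53 against 8.63 and 8.66, and Klf4 read 10.87 and 11.34 against 10.45 and 10.41. Fgf4, the ligand that drives ERK signalling in these cells, read 10.39 and 10.29 against 9.41 and 9.75, and Prdm14, a repressor that protects the naive state, read 8.32 and 8.35 against 7.20 and 7.69. Gbx2 was the 1 naive gene on the other side, at 8.38 and 8.54 against 9.02 and 9.03.

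Of the primed genes, Fgf5 read 3.74 and 3.31 in siNonTarget and 5.44 and 6.02 in siDdb1. Its difference of 2.21 (SE 0.34, adjusted p = 0.113) was the largest of the list, from control values under the array median. Pou3f1, a POU factor of the epiblast and neural plate, was bright throughout at 8.72 and 9.19 against 10.85 and 10.50 (1.72, adjusted p = 0.18). Nodal, the ligand of the epiblast, read 10.70 and 10.89 against 12.05 and 11.46, and Sox4 read 10.35 and 10.69 against 11.41 and 11.40. All 4 were separated from control.

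The general pluripotency factors lay near or slightly below their control level. Pou5f1, which encodes Oct4, read 13.16 and 13.30 in siNonTarget and 13.08 and 13.10 in siDdb1. Nanog read 11.93 and 12.13 against 11.68 and 11.92 (-0.23, SE 0.18), and Sox2 read 12.23 and 12.47 against 12.36 and 12.36. Of 19 general pluripotency genes 0 were higher and 2 lower at an unadjusted p under 0.05 (5.85% and 4.01% of all genes). These were Mybl2, a cell cycle factor, at 10.61 and 10.60 against 9.97 and 10.06, and Zfp57, a guardian of imprints, at 8.20 and 8.38 against 7.86 and 7.67. Without overlap, 8 of the 19 lay below control (42.1%, against 22.3% of all genes) and 2 above (10.5%, against 19.8%). The median fold change of the list was -0.07.

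Feedback genes of ERK signalling were higher on the whole. They are switched on by the pathway, and the products of some of them restrain it. Of 16 measured, 7 were higher and 2 lower at an unadjusted p under 0.05, with a median of 0.34. The shares of all genes were 5.85% and 4.01%. Dusp6, the phosphatase that acts on ERK, read 9.65 and 9.33 in siNonTarget and 10.65 and 10.55 in siDdb1 (1.11, SE 0.17, adjusted p = 0.115), and Dusp4, a related phosphatase, read 7.81 and 7.52 against 8.81 and 8.56. Fosl1, an AP-1 subunit, read 3.76 and 4.21 against 5.80 and 5.32. Egr1, an immediate early factor, lay lower instead, at 9.27 and 9.48 against 8.39 and 8.73. The count of 7 was 4 without siDdb1 replicate 1 or without siNonTarget replicate 2.

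**Figure D4:**
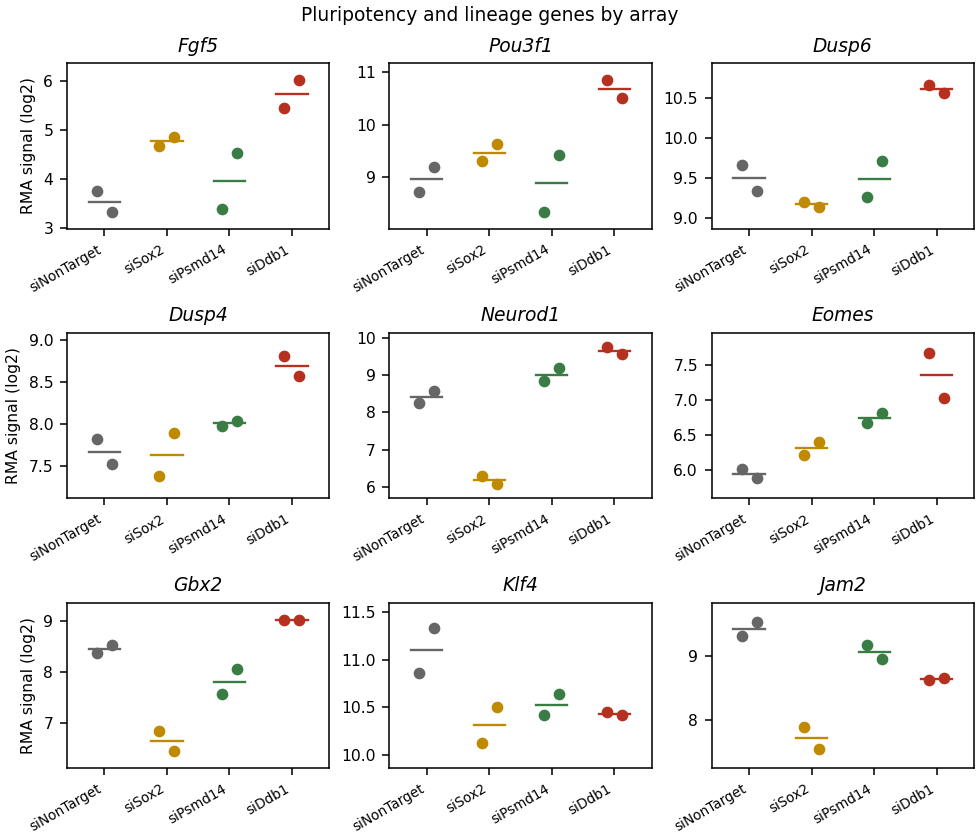
RMA signal (log2) of 9 pluripotency, ERK feedback and lineage genes on the 8 arrays, with 2 points per group and a line at the group mean. Fgf5, Pou3f1, Dusp6 and Dusp4 have their highest points in siDdb1, while Klf4 and Jam2 lie below siNonTarget in siDdb1.

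Lineage genes were mixed, with single members far from control. Of 22 neuroectoderm genes 5 were higher and 3 lower at an unadjusted p under 0.05, with a median of 0.02. The shares of all genes were 5.85% and 4.01%. Besides Hes6, the higher genes included Neurod1, a proneural factor, at 8.25 and 8.56 against 9.75 and 9.56 (1.25, adjusted p = 0.0853), and Dll1, a Notch ligand, at 5.96 and 6.54 against 7.68 and 7.48. The 3 lower ones were Ncam1 at 6.54 and 7.16 against 5.77 and 5.83, Tubb3 at 9.56 and 9.56 against 9.06 and 9.26, and Stmn2 at 11.67 and 12.06 against 11.20 and 11.46. Of the 22 genes 11 had a positive and 11 a negative fold change.

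Of 17 mesoderm and mesendoderm genes 3 were higher and 0 lower, with a median of 0.02. By the same rule 5.85% of all genes were higher and 4.01% lower. Eomes, a T-box factor of the primitive streak and trophoblast, read 6.01 and 5.88 in siNonTarget and 7.67 and 7.04 in siDdb1 (1.41, SE 0.20, adjusted p = 0.0853). Of 21 trophectoderm genes 5 were higher and 1 lower, with a median of 0.14. Krt19, a simple epithelial keratin, read 7.74 and 7.51 against 9.42 and 8.87, and Cdx2, the trophectoderm's homeobox factor, read 5.10 and 5.19 against 5.68 and 5.68. Of 19 primitive endoderm genes 3 were higher and 1 lower, with a median of 0.03, among them Cubn, an endocytic receptor, at 4.08 and 4.34 against 6.13 and 5.10. Of 33 Hox genes 3 were higher (9.09%, against 5.85% of all genes) and 0 lower, with a median of 0.12. Apart from Hoxd13 the higher genes were Hoxc10 and Hoxd8, both under 4 on all 4 arrays. Most of the list was dim, with 26 of the 33 under a mean of 5 in both groups.

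Genes of the 2-cell-like state, a rare state of embryonic stem cells that resembles the early embryo, had the largest median of the 26 lists and the widest gap between the siDdb1 arrays. Of 12 listed genes 5 were measured and 4 were higher at an unadjusted p under 0.05, where 5.85% of all genes were higher. The median was 1.34, with 2.05 on siDdb1 replicate 1 and 0.56 on replicate 2. In siSox2 and siPsmd14 the median shift from control was 0.68 and 0.52. Zfp352, a zinc finger gene of the 2-cell embryo, read 4.96 and 5.87 in siNonTarget and 7.79 and 6.30 in siDdb1. Tcstv3 read 2.89 and 2.90 against 5.52 and 3.45. The count of 4 was 0 without siDdb1 replicate 1 or siNonTarget replicate 1, and 1 without siNonTarget replicate 2.

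Several of the genes with the largest positive fold changes had values of the same form. BC080696 read 3.41 and 4.74 in siNonTarget and 8.14 and 6.34 in siDdb1, a difference of 3.17 (SE 0.92, adjusted p = 0.37) that was the largest of all genes. Usp17la, a deubiquitinase of a multicopy family, read 6.69 and 7.60 against 10.87 and 9.06. AF067061 read 7.65 and 9.24 against 12.14 and 10.33, and Pramel18 read 4.62 and 5.88 against 8.79 and 6.85. In each of these 4 genes siNonTarget replicate 2 was above siNonTarget replicate 1 and siDdb1 replicate 1 above siDdb1 replicate 2. All 4 had means above siNonTarget in the other knockdowns too. In siSox2 and siPsmd14 the differences were 2.67 and 1.34 for BC080696 and 2.60 and 2.64 for Usp17la. For AF067061 they were 1.67 and 1.90, and for Pramel18 2.39 and 1.55. None of the 4 differed between siDdb1 and either knockdown past the adjusted threshold. Near-identical copies of these families can share a probe set, so their identity is uncertain.

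Proteostasis and stress lists lay near control. Of 36 proteasome subunits 0 passed an unadjusted p under 0.05 in either direction, and the median was -0.04. By that rule 5.85% of all genes were higher and 4.01% lower. Without overlap, 16 lay below control (44.4%, against 22.3% of all genes) and 3 above (8.33%, against 19.8%). Of 21 genes of the unfolded protein and integrated stress response 0 were higher and 1 lower. The lower one was Chac1, at 6.63 and 7.91 against 6.51 and 6.37. Hspa5, the endoplasmic reticulum chaperone BiP, read 12.72 and 12.73 against 12.89 and 13.04, above control without overlap but not past that p. Of 15 NRF2 targets 0 passed in either direction. Of 15 heat shock chaperones 3 were higher, including the inducible Hsp70 gene Hspa1a at 5.51 and 6.13 against 7.79 and 7.01. Of 24 nucleotide excision repair genes 4 were lower and 0 higher, with a median of -0.06: Xpc, the damage verifier Xpa at 7.63 and 7.42 against 6.96 and 7.10, Rad23b, the partner of XPC, at 11.78 and 11.78 against 11.50 and 11.51, and the dim Ercc6.

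Of 15 cholesterol synthesis genes 3 were lower and 0 higher, with medians of -0.38 on replicate 1 and -0.03 on replicate 2. The shares of all genes were 4.01% lower and 5.85% higher. Nsdhl, a sterol dehydrogenase, read 9.57 and 9.23 against 9.02 and 9.06, and the count of 3 was 0 without siDdb1 replicate 1 or siNonTarget replicate 1. Of 20 interferon response genes 3 were higher and 1 lower, with Tap1, the peptide transporter of antigen presentation, at 5.59 and 5.52 against 7.45 and 6.58. The fibroblast markers, read as a measure of feeder cells, had 5 of 25 higher and 0 lower, with a median of 0.09 and summed intensities of 7560 and 7097 in siNonTarget and 10196 and 9891 in siDdb1. The 3 with the smallest p were Mmp2, a matrix protease, Ccn2, a matricellular protein, and Twist1, a mesenchymal factor, whereas the defining collagens Col1a1 and Col3a1 read under 4 on all 4 arrays. In bulk samples more cells of a type and more RNA per cell cannot be told apart, and the part of these markers in the results was not tested.

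**Figure D5:**
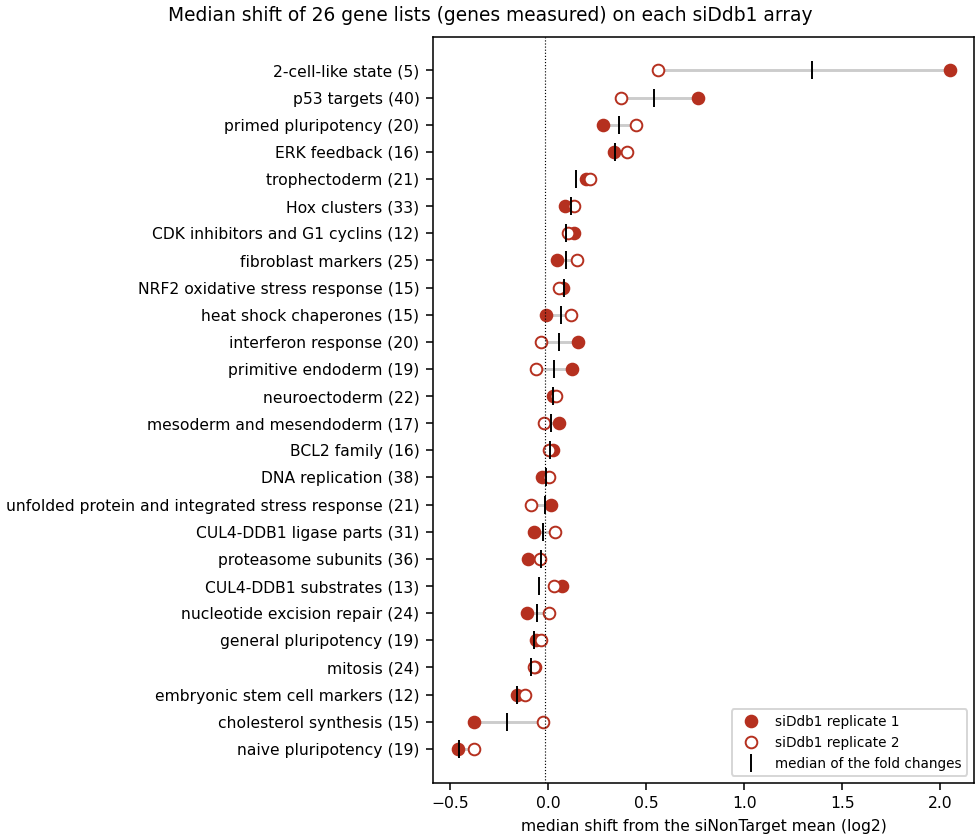
Median shift from the siNonTarget mean (log2) of 26 gene lists on siDdb1 replicate 1 (filled) and replicate 2 (open), with the median of the fold changes as a tick the number of genes measured in brackets, and a dotted line at the median over all genes (-0.01). The 2-cell-like list (2.05 and 0.56) and the p53 targets (0.77 and 0.37) are spread between the arrays, while the naive, primed and ERK feedback lists keep their side on both.

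The differences between siDdb1 and the other knockdowns contain no control array, although the control arrays add to the estimate of the spread. Against siSox2, 369 genes (2.03%) were higher in siDdb1 and 473 (2.6%) lower at the adjusted threshold, and against siPsmd14, 24 (0.132%) were higher and 83 (0.456%) lower. Of the 8 genes that rose over control, 8 were above siSox2 and 6 above siPsmd14. They were chosen for high values on the same siDdb1 arrays, so these counts are a description and no separate support. Hoxd13 missed the threshold against siPsmd14 (adjusted p = 0.069), and Csn3 did not differ detectably from it, at 5.69 and 5.59 in siDdb1 and 5.82 and 5.66 in siPsmd14 (-0.10, adjusted p = 0.925).

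Across all genes 20 were above both other knockdowns and 14 below both. Those above included Gfra1 by 2.77 and 2.18 (adjusted p = 0.000311 and 0.00529 against siSox2 and siPsmd14), Dusp6 by 1.44 and 1.12 (0.00404 and 0.0397) and Gbx2 by 2.38 and 1.22 (0.000843 and 0.0401). The Gbx2 values were 9.02 and 9.03 in siDdb1, 7.56 and 8.05 in siPsmd14, and 6.85 and 6.45 in siSox2. Ddb1 was among those below both. Krt8, an epithelial keratin, and Cebpb, a bZIP factor, were also below both, and each was chosen after its values were seen. Krt8 read 10.45 and 10.49 in siDdb1 and 9.92 and 9.74 in siNonTarget, against 12.51 and 12.40 in siPsmd14 and 12.36 and 13.47 in siSox2.

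The primed list lay above both other knockdowns, with a median difference of 0.72 from siSox2 (5 of 20 genes past the adjusted threshold, 0 below) and 0.81 from siPsmd14 (1 above, 0 below), where all genes had 0.019 and 0.0021. At an unadjusted limma p under 0.05, 13 primed genes were higher than in siPsmd14 and 1 lower. Of all genes 5.86% were higher and 6.49% lower. The naive list had median differences of 0.12 from siSox2 and 0.03 from siPsmd14. Past the adjusted threshold 4 naive genes were higher and 1 lower than in siSox2, and 1 higher and 0 lower than in siPsmd14. The p53 targets lay above siSox2 by a median of 0.34, with 4 higher and 1 lower, and at -0.09 from siPsmd14, with 0 past the threshold in either direction and 3 higher and 5 lower at an unadjusted limma p under 0.05. Of 21 trophectoderm genes 13 were lower than in siSox2, led by Plac1, a placental gene, at 4.59 and 4.20 in siDdb1 (-6.16, adjusted p = 1.22e-05). Fosl1 was lower than in siPsmd14 by -3.01 (adjusted p = 0.00343), although it lay above control in siDdb1.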

How the data were processed

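An Ovation system (V2) amplified 5 ng of RNA per sample, and cDNA carrying biotin went onto Affymetrix arrays, per the labels' protocols. RMA produced the deposited intensity values, per the submitters' processing notes, and they were on a linear scale. Settings of RMA and a genome build were not given in the sources used here. RMA in its usual form sets all arrays to 1 distribution, which hides a change in total RNA per cell.

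Log2 was taken. Of 45101 probe sets, 64 controls were left out. Of the remaining 45037, GEO's platform annotation gave 34945 a single symbol, 932 several and 9160 none, and 34741 matched the reference gene table by Entrez identifier, with 0 renamed. The brightest single-symbol probe set over the 8 arrays represented each of 18193 genes. The 8 arrays, grouped by title with 2 in each of 4 groups, were fitted together with limma 3.58.1 in R 4.3.3 (lmFit, eBayes without trend, 9.02 total degrees of freedom). The number of arrays limits the precision, and the median SE was 0.151. The script was tested on simulated data.

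Genes named were Ddb1, Sox2, Psmd14, Pou5f1, Nanog, every gene past the threshold, the 15 smallest p-values and the 8 largest bright fold changes in each direction among genes without overlap, up to 3 members of each of 26 lists, and the 5 smallest p-values each way in the direct comparisons, of which fewer are printed. Further list members and genes were picked once their values had been seen. The genes and lists were chosen with earlier results of these data known. Psmd14 read 12.07 and 11.97 in siNonTarget and 11.93 and 12.02 in siDdb1. Lists were described by counts and medians without a test. Alternatives covered the filter on dim probe sets, scaling, the variance model, array weights, the arrays fitted, a replicate block, the probe set of a gene, the threshold, the reference and leaving out each array.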

Additional observations from a re-analysis of the deposited data

Results flagged for a closer look

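The control probe set for 18S ribosomal RNA, which no comparison used, was higher in siDdb1 than in siNonTarget by 0.902 on the log2 scale. It read 11.04 and 11.39 in siNonTarget and 11.52 and 12.71 in siDdb1, so both siDdb1 arrays lay above both controls and replicate 2 accounted for most of the difference. In the other groups it read 10.93 and 11.70 (siSox2) and 10.68 and 13.09 (siPsmd14). Replicate 2 was thus above replicate 1 in every group, and siPsmd14 replicate 2 was the highest array. The siDdb1 difference was flagged as a signal outside the main measurement that exceeds the control level. The difference itself was not tested. The difference between the 3' and 5' probe sets of Actb, a measure of RNA integrity, was 0.174 and 0.158 in siNonTarget and 0.142 and 0.194 in siDdb1, so those groups overlapped.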

How the results depend on the processing

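The count of probe sets past the threshold, 12 in siDdb1 against siNonTarget, was 0 with the dimmer 50% left out, with means under 5 left out, with the 4 arrays alone and at an adjusted p of 0.01. It was 3 with the probe sets of a gene averaged and 106 against the mean of the 3 other groups. Leaving out 1 array gave 0 to 146: the 146 came from leaving out siDdb1 replicate 2, and each of the other 7 arrays gave 0. With a replicate block it was 2, and with the siDdb1 numbers crossed, an alternative added after seeing the data, 53. Deviations of same-numbered siNonTarget and siDdb1 arrays correlated at -0.213, so the numbers were not read as pairs. Other pairs of groups ran from -0.217 (siSox2 and siDdb1) to 0.242 (siNonTarget and siSox2). Whether the numbers mark a shared batch was not tested. The count of probe sets stayed between 10 and 18 under the other scalings, variance models, weights, 1 probe set per gene and the 2-fold minimum. Array medians or quantiles changed no direction.

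The count for siDdb1 against siSox2, 1387, ranged from 319 to 1486 with 1 array left out, and that for siDdb1 against siPsmd14, 186, from 11 (without siPsmd14 replicate 1) to 884 (without siPsmd14 replicate 2). The replicate block gave 1389 and 180. The Ddb1 difference ranged from -2.18 to -1.12. The correlation between arrays was 0.504 for crossed pairs.

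Leaving out 1 array gave list medians of -0.54 to -0.38 for naive, 0.26 to 0.51 for primed and 0.32 to 0.47 for ERK feedback, which was 0.27 with probe sets averaged. Medians near 0 changed sign: the median of CUL4-DDB1 substrates (-0.0612 to 0.0712) and the median of BCL2 family genes (-0.0188 to 0.0447, and -0.0122 with probe sets averaged) on leaving out 1 array, and neuroectoderm at -6.3e-05 among genes with a mean of at least 5. The cause was not tested. No detection calls limit what is said of genes near the array median.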
